A study of Mus musculus with 6 samples.

Results

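Guidance genes encode the secreted and membrane-bound cues that steer growing axons, migrating cells and vessel sprouts, together with the receptors that read them. The genes described here are the semaphorins, their plexin and neuropilin receptors, the ephrins and Eph receptors, the Slits and Robos, and the netrins and Unc5 receptors. They were taken by symbol alone, as every gene of these families whose symbol has the form of a Sema, Plxn, Nrp, Eph, Efn, Slit, Robo, Ntn or Unc5 gene, and 68 of the 22609 gene symbols in the count lists met this rule. They comprise 35 ligands (20 semaphorins, 8 ephrins, 3 Slits and 4 netrins) and 33 receptors (9 plexins, 2 neuropilins, 14 Eph receptors, 4 Robos and 4 Unc5 receptors). The rule itself uses no expression value, but the members were chosen with earlier results of these data known.

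Primary adipocytes of mouse inguinal white fat were grown by isolating stromal vascular cells and differentiating them in culture, and 3 control samples were compared with 3 samples overexpressing miR182. All 6 came from male C57BL6 mice that the labels give as 3 weeks old. The labels name electroporation and a control vector, whereas the study's methods name a mimic, a lipid reagent and another age, so the form in which the miRNA was delivered is not settled by these sources. Nothing in the sources says that the samples of a group came from separate mice or separate cultures, so the p-values measure the spread between these 6 samples, which may be technical.

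Class 3 semaphorins are secreted and bind a neuropilin, which holds the ligand, paired with a plexin, which signals to the cytoskeleton; other semaphorins are mostly membrane-bound and bind plexins directly. Slits signal through Robo receptors, netrins through Dcc, neogenin and Unc5 receptors, and ephrins through Eph receptor tyrosine kinases between cells in contact. In fat, members of these families have been studied mainly as cues for sympathetic nerve fibres, vessels and stromal cells, and some as secreted adipocyte products.

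miR-182-5p is a miRNA of the miR-183 cluster, and a miRNA recognises mRNAs mostly through bases 2 to 8, the seed. Its mature sequence and the matches to its seed in the 3′-UTRs of the guidance genes are shown as a description. The rest of each transcript, including the region before the coding sequence, was not searched. Pairing at any site was not tested. The mature sequence, from RefSeq, is encoded on the minus strand at chr6:30165962-30165986 of GRCm38.p6, and the seed is in capitals.
miR-182-5p: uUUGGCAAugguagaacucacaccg
The 7 bases complementary to this seed are TTGCCAA, and they were searched on the transcript strand of the longest annotated 3′-UTR of each gene (GENCODE M21, GRCm38). They occurred in 8 of the 68 guidance genes. Of the 56 guidance genes with enough reads to test, 7 held a match (12.5%), and over all tested genes with an annotated 3′-UTR the share was 12.53%, 1568 of 12518. The sites of these 7 genes follow, each with its strand and GRCm38 position and with the match in capitals.
Robo1, plus strand, chr16:73045637-73045665: ccaactcggaaTTGCCAAgtgatgctctg
Epha7, plus strand, chr4:28964672-28964700: aaaattgcaagTTGCCAAgagctctgata
Ntn3, minus strand, chr17:24205062-24205090: aggcccttcacTTGCCAAagatgacacaa
Efnb2, minus strand, chr8:8617692-8617720: ggtataaaaggTTGCCAAattgctgcata
Efna5, minus strand, chr17:62604434-62604462: tttgcccctggTTGCCAAgggctttgcaa
Plxnb1, plus strand, chr9:109118406-109118434: cttgttccctgTTGCCAAttcccaggaga
Sema5a, plus strand, chr15:32696120-32696148: ggtcctgcattTTGCCAAgagcacagcat
The sites of Ntn3 and Efnb2 are followed by an A, the longer 8-base form of a seed match. The eighth gene is Unc5d, which had too few reads to test.

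The libraries were poly(A)-selected and strand-specific, and each sample has 1 list of read counts per gene. Reads counted on genes came to between 25869810 and 26484794 in the control samples and between 25960631 and 28796712 in the miR182 samples. The Mir182 gene itself had 0 reads in all 6, in libraries that do not capture mature miRNAs, so overexpression cannot be checked in these counts. The 6 adipocyte markers were present, and their summed level was 5925 to 6248 CPM (reads per 1000000 gene reads, on TMM-scaled library sizes) in control and 4115 to 4659 CPM in miR182 samples. Fabp4, which makes up most of this sum, was called lower, Adipoq, Cidec and Pparg passed the adjusted p in the same direction, and Plin1 and Lipe did not pass. The 6 stromal progenitor markers summed to 931 to 996 CPM in control and 605 to 713 CPM in miR182 samples. Of the 5 tested, 3 (Pdgfra, Cd34 and Pi16) were called lower, beside 5.48% of all genes. Ly6a and Dlk1 passed the adjusted p in the same direction, and Dpp4 was not tested. The 5 mural cell markers, whose sum is mostly Acta2, summed to 2384 to 2510 CPM in control and 2928 to 3136 CPM in miR182 samples. Past the adjusted p, Acta2 and Cspg4 rose and Notch3 fell, while Myh11 did not pass and Rgs5 was not tested. Defining markers of other cells were near 0, with at most 11 reads of Pecam1 (endothelium), 4 of Ptprc (leukocytes) and 12 of Prox1 (lymphatic endothelium) in any sample, 1 of Epcam (epithelium), and 0 of Rbfox3 (neurons), Krt8 and Krt18.
The summed lists were 12.6 to 14.3 against 11.4 to 14.3 CPM for the 6 macrophage markers, of which Lyz2 was called lower, and 8.13 to 9.27 against 5.09 to 5.92 CPM for the 6 endothelial markers, of which Tek was called lower. The 4 lymphatic markers, nearly all Pdpn, gave 53.4 to 59.5 against 36.9 to 42.8 CPM, the 7 nerve and Schwann cell markers, mostly Tubb3 and with S100b called lower, gave 61.2 to 64.5 against 83.9 to 84.9 CPM, and the 5 mesothelial and epithelial markers stayed under 0.461 CPM in every sample. These are bulk samples, in which fewer cells of a type and less RNA per cell cannot be told apart, and the part of such shifts in the results that follow was not tested.

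Of the 68 guidance genes, 56 had enough reads to test. The quasi-likelihood test of edgeR gave the fold changes, their standard errors (SE, on the log2 scale) and the p-values, which were adjusted by the Benjamini-Hochberg method over all 13117 genes tested, and a gene was called when it changed at least 1.5-fold with an adjusted p under 0.05. Of the 56, 11 (19.6%) were called, beside 7.45% of all genes tested. The 4 called higher (7.14%, beside 1.97% of all genes) were Plxna4, Nrp2, Sema7a and Sema3f. The 7 called lower (12.5%, beside 5.48% of all genes) were Sema3g, Ntn1, Sema3b, Sema3c, Robo1, Ntn4 and Unc5a. A further 19 passed the adjusted p with changes under 1.5-fold, which made 30 of 56 (53.6%) past the adjusted p alone, beside 46.7% of all genes. The 3 control and 3 miR182 values did not overlap in 31 of 56 (55.4%), beside 54.8% of all genes, so by these last measures the guidance genes were close to the background. Their median log2 fold change was -0.05, beside -0.0043 over all genes, and the median size of change regardless of sign was 0.25 beside 0.16. The plot of fold changes by family places each tested gene.

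**Figure D1:**
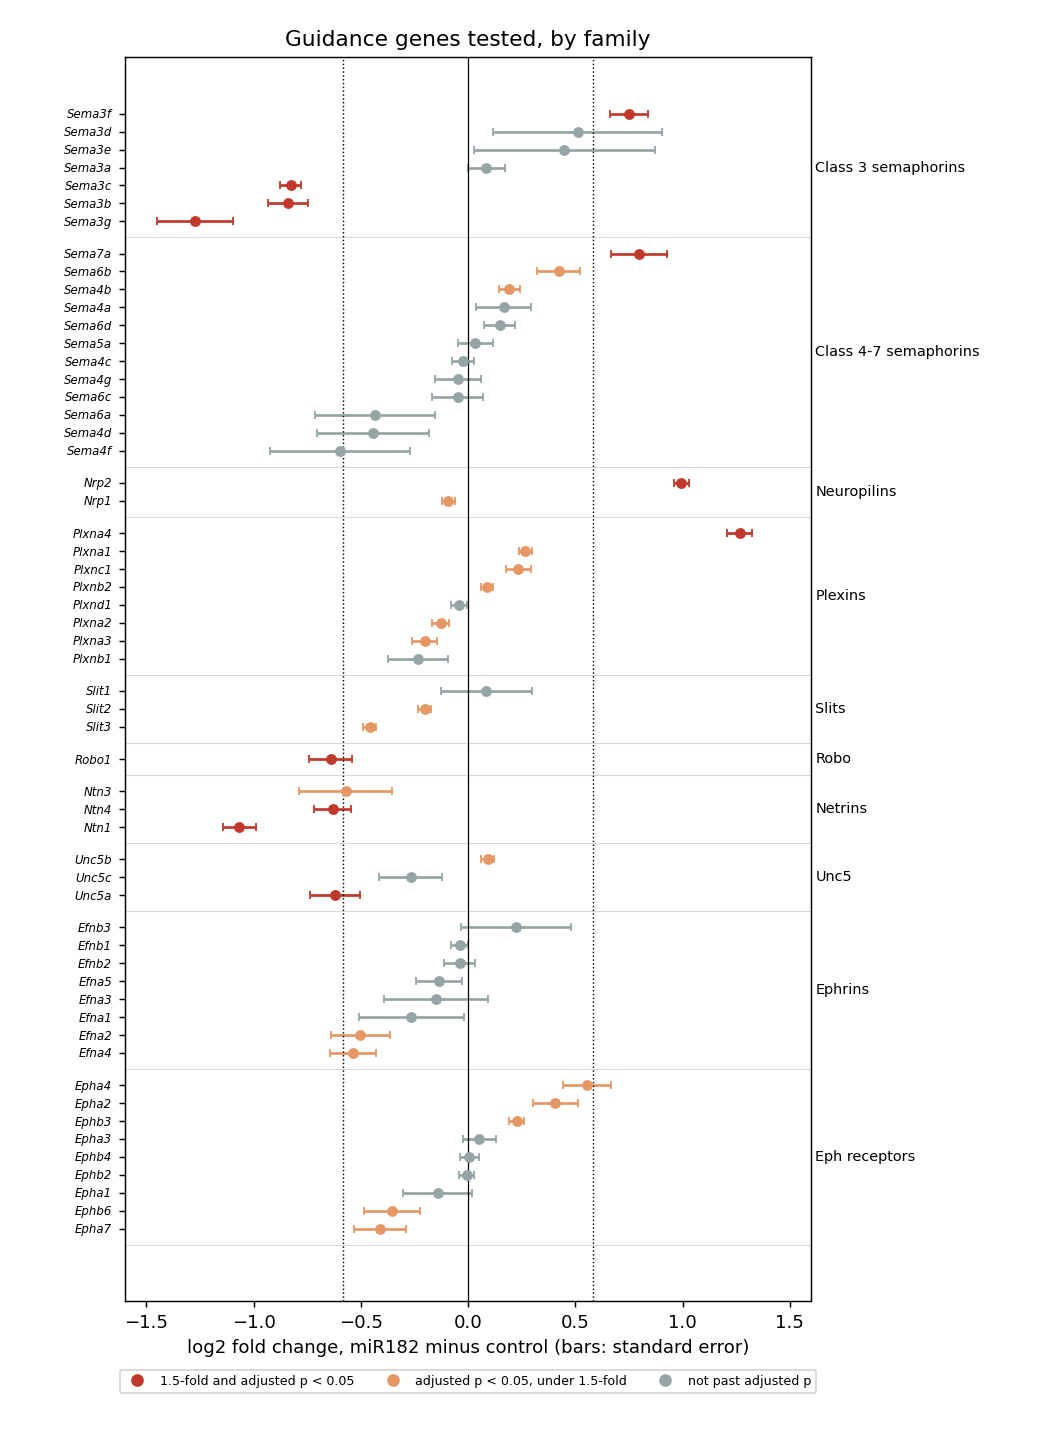
Log2 fold change (miR182 minus control, horizontal axis) of the 56 tested guidance genes, grouped by family, with bars of 1 standard error and dotted lines at 1.5-fold. Red points are the 11 called genes, orange the 19 past the adjusted p but under 1.5-fold and grey the 26 not past it; the ends of the range are Plxna4 at 1.27 and Sema3g at -1.27.

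The summed ligand reads were lower and the summed receptor reads higher in the miR182 samples. Summed over the 35 ligands, the 3 control samples held 1250, 1211 and 1218 CPM and the 3 miR182 samples 982, 1005 and 1006 CPM. Summed over the 33 receptors, the values were 2001, 1929 and 1978 CPM in control and 2148, 2160 and 2170 CPM in miR182 samples. Neither sum overlapped between the groups, and each was dominated by a few abundant genes. Non-overlap was common, as it was found in 54.8% of all single genes tested. Gene by gene, 12 of the 33 tested ligands were higher and 21 lower (median log2 fold change -0.05). Of the 23 tested receptors, 11 were higher and 12 lower (median -0.0065), beside 49.2% of all genes higher. The receptor rise is therefore one of summed reads and not of most receptor genes. To set genes side by side, CPM was divided by the annotated exon length in kilobases. This scale pools the exons of all annotated transcripts of a gene, so the order of genes on it depends on the annotation. On that scale Slit3 was the highest in control samples at 101 CPM per kb, followed by Unc5b at 67.2, Plxna1 at 49.99, Plxnb2 at 38.3, Nrp1 at 24.4 and Efnb1 at 23.1 CPM per kb. The called genes were of low to middle level, from 0.745 CPM per kb (Robo1) to 5.46 CPM per kb (Sema3c) in control, and none of them was among the 10 highest.

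**Figure D2:**
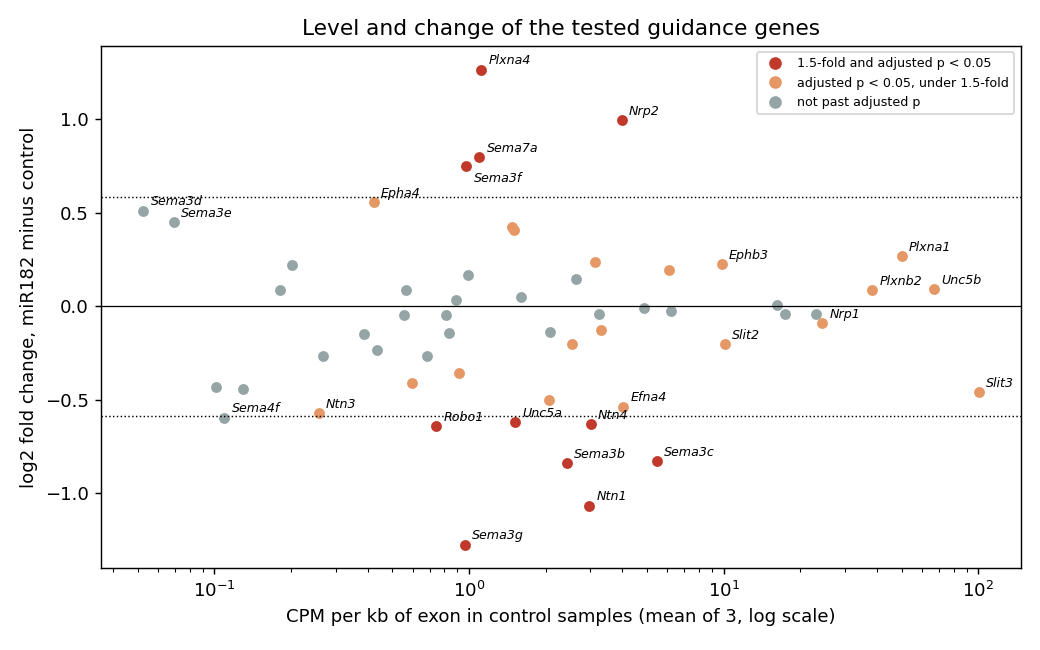
Mean level in the control samples (CPM per kb of exon, log scale, horizontal axis) against log2 fold change (miR182 minus control, vertical axis) for the 56 tested guidance genes, coloured by call, with dotted lines at 1.5-fold. The 11 called genes lie between 0.745 and 5.46 CPM per kb, while Slit3, at 101 CPM per kb, lies at -0.46.

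Among the ligands, the class 3 semaphorins split. Of 7 members, all tested, 3 were called lower, beside 5.48% of all genes, and 1 was called higher, beside 1.97%. The other 3 did not pass the adjusted p. The summed level of the 7 was 68.6, 68.8 and 69.6 CPM in control and 50.3, 48.6 and 47.2 CPM in miR182 samples. The sums did not overlap, beside 54.8% of all single genes without overlap.
Sema3c, a secreted semaphorin known from heart and vessel development and the most abundant of the class in these samples, measured 37.2, 39.7 and 40.1 CPM in control and 22.3, 21.6 and 22.1 CPM in miR182 samples. The groups were far apart relative to their spread, and the level fell 1.77-fold (log2 -0.83, SE 0.051, adjusted p = 1.48e-08). Sema3c lies at chr5:17574281-17730268 on the plus strand.
Sema3b, a secreted semaphorin also studied as a growth inhibitor, measured 12.5, 10.5 and 11.7 CPM in control and 6.51, 6.98 and 5.95 CPM in miR182 samples. Each miR182 value was below each control value, and Sema3b fell 1.79-fold (log2 -0.84, SE 0.093, adjusted p = 5.08e-06).
Sema3g, known for its expression in arterial endothelium and in adipose tissue, had the largest fall of the 56 genes. It measured 5.03, 4.63 and 3.45 CPM in control and 1.47, 1.82 and 2.12 CPM in miR182 samples. It was 2.42-fold lower (log2 -1.27, SE 0.18, adjusted p = 4.11e-05), with the wider error of a gene at a few CPM, and the groups did not overlap.
Sema3f, a repellent for axons and a ligand that binds Nrp2 by preference, went the other way. It measured 5.15, 5.09 and 4.98 CPM in control and 8.63, 8.84 and 8.15 CPM in miR182 samples. The groups were well separated, and Sema3f rose 1.68-fold (log2 0.75, SE 0.088, adjusted p = 9.26e-06). Sema3b (chr9:107597674-107609229) and Sema3f (chr9:107681500-107710475) lie on the same strand of chromosome 9 with 72270 bases between them in GRCm38, and they changed in opposite directions.
The other 3 members overlapped between groups. Sema3a, the founding repellent of the class, was at 7.88 ± 0.36 CPM in control and 8.35 ± 0.60 CPM in miR182 samples (SD, n = 3 each). Sema3d and Sema3e were under 1 CPM on average in both groups, with SEs of 0.39 and 0.42 on the log2 scale, so a 1.5-fold change in either would have been within 2 SE.

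**Figure D3:**
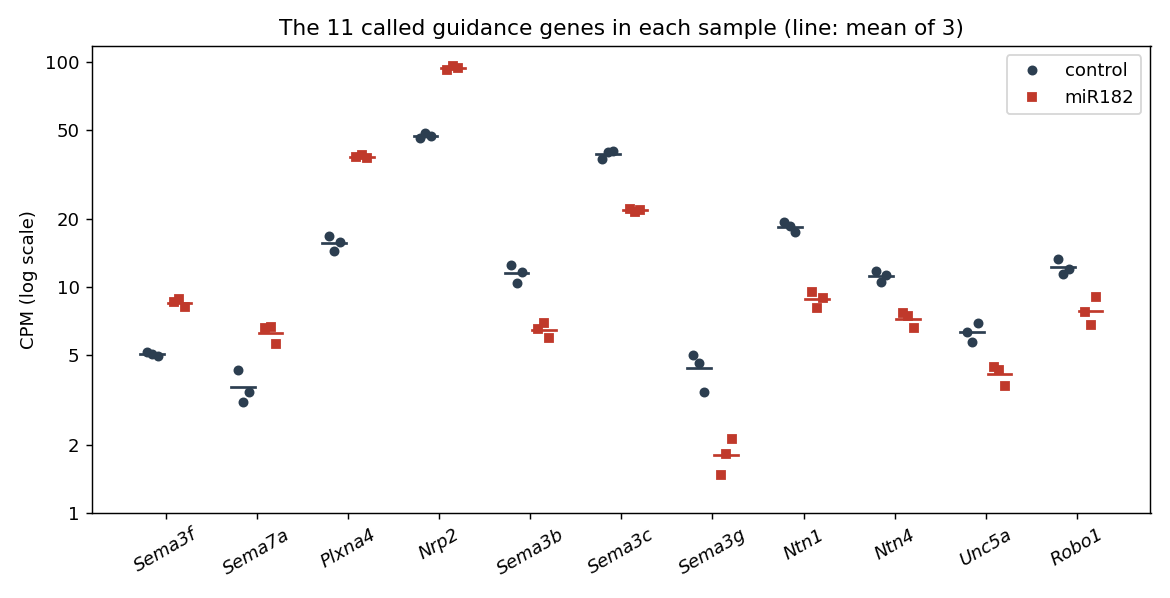
CPM (vertical axis, log scale) of the 11 called guidance genes in each of the 3 control (circles) and 3 miR182 (squares) samples, with lines at the group means. Sema3f, Sema7a, Plxna4 and Nrp2 lie higher and the other 7 lower in all 3 miR182 samples, and no gene's groups overlap. The genes were called from these same samples, so this separation adds no further support.

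Of the 12 tested semaphorins outside class 3, 1 was called, beside 7.45% of all genes. Sema7a, a GPI-anchored semaphorin that signals through integrin beta 1 as well as Plxnc1, measured 4.32, 3.10 and 3.45 CPM in control and 6.61, 6.68 and 5.60 CPM in miR182 samples. The groups did not overlap, and Sema7a rose 1.74-fold (log2 0.80, SE 0.13, adjusted p = 0.000201). In classes 4 to 6, edgeR called 0 of 11 tested genes, beside 7.45% of all genes, as did DESeq2 and limma-voom, and 2 had an unadjusted p under 0.05. These were Sema6b, which rose 1.34-fold from 5.88 ± 0.62 to 7.89 ± 0.50 CPM (adjusted p = 0.00313), and Sema4b, which rose 1.14-fold from 34.5 ± 1.9 to 39.4 ± 0.97 CPM (adjusted p = 0.00622). Sema4b was the most abundant of class 4 in reads and Sema6d, a ligand of plexin A1, of class 6, at 27.8 ± 1.4 and 30.8 ± 3.4 CPM with overlapping groups. Sema5a, the only tested member of class 5 and the holder of a seed match, measured 16.6 ± 1.8 and 17.0 ± 1.4 CPM. Sema4c was at 28.6 ± 0.94 and 28.1 ± 0.51 CPM (log2 -0.02, SE 0.050), with 334 of 4593 exon bases overlapped on the other strand. The remaining 6 tested members of classes 4 and 6 (Sema4a, Sema4d, Sema4f, Sema4g, Sema6a and Sema6c) had log2 fold changes from -0.60 (Sema4f, SE 0.33) to 0.17 (Sema4a, SE 0.13), and none passed the adjusted p.

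Among the receptors of semaphorins, Nrp2 and Plxna4 rose while their relatives moved little. Nrp2, the neuropilin that binds Sema3f and also lymphatic growth factors of the VEGF family, measured 46.1, 48.2 and 46.9 CPM in control and 91.9, 95.5 and 94.1 CPM in miR182 samples. The spread within each group was small beside the gap, and Nrp2 rose 1.99-fold (log2 0.995, SE 0.036, adjusted p = 4.73e-11). Nrp1, the neuropilin that binds Sema3a and VEGF-A, was the more abundant in both groups and was slightly lower, at 239 ± 2.3 against 225 ± 6.8 CPM, a 1.07-fold fall (adjusted p = 0.0199). Nrp2 lies at chr1:62703285-62818695 on the plus strand.
Plxna4, a signalling partner of neuropilins for class 3 semaphorins and a direct receptor of class 6 semaphorins, had the largest rise of the 56 genes. It measured 16.9, 14.5 and 15.9 CPM in control and 37.7, 38.6 and 37.3 CPM in miR182 samples. It rose 2.40-fold (log2 1.27, SE 0.059, adjusted p = 8.75e-10), and each miR182 value was far above each control value. Plxna4 lies at chr6:32144268-32588192 on the minus strand, and 110 of its 14103 annotated exon bases are overlapped by a gene on the other strand. Whether counting used the strand is not given in the sources used here.
Of the 8 tested plexins, 1 was called, beside 7.45% of all genes. A further 5 passed the adjusted p under 1.5-fold and 2 did not pass, while 46.7% of all genes passed it at any fold. Plxna1, the most abundant plexin in CPM and per kb, measured 458, 436 and 464 CPM in control and 546, 542 and 545 CPM in miR182 samples. The groups did not overlap and Plxna1 rose 1.20-fold (log2 0.27, SE 0.030, adjusted p = 5.66e-06), a gene of which 970 of 9054 exon bases are overlapped on the other strand. Plxnc1, the plexin of Sema7a, rose 1.18-fold from 26.1 ± 1.2 to 30.8 ± 2.0 CPM (adjusted p = 0.00487), and Plxnb2, a receptor of class 4 semaphorins, rose 1.06-fold from 296 ± 5.3 to 314 ± 1.9 CPM (adjusted p = 0.0155).
The other class A plexins were lower. Plxna2 fell 1.09-fold from 56.8 ± 0.98 to 52.0 ± 1.1 CPM (adjusted p = 0.0151), and Plxna3 fell 1.15-fold from 20.1 ± 0.43 to 17.4 ± 0.67 CPM (adjusted p = 0.0107). Plxnd1, the receptor of Sema3e in vessels, measured 127 ± 2.7 and 124 ± 6.2 CPM (log2 -0.04, SE 0.037). Plxnb1, with a seed match, measured 4.16 ± 0.46 and 3.55 ± 0.54 CPM, and neither of these passed the adjusted p. Summed over 9 plexins, the samples held 1015, 976 and 1006 CPM in control and 1117, 1126 and 1130 CPM with miR182.

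All 3 tested netrins fell. Netrins are laminin-related secreted proteins that attract or repel axons depending on the receptor. Each tested member passed the adjusted p, as did 46.7% of all genes. Ntn3, however, passed in only 1 of the 6 fits that left out 1 sample. The summed netrin level was 32.6, 30.7 and 30.3 CPM in control and 18.4, 16.3 and 16.4 CPM in miR182 samples. These sums did not overlap, beside 54.8% of all single genes without overlap.
Ntn1, the best-studied netrin, also known as a signal that retains macrophages in fat, measured 19.6, 18.6 and 17.6 CPM in control and 9.52, 8.08 and 8.96 CPM in miR182 samples. It fell 2.09-fold (log2 -1.07, SE 0.076, adjusted p = 6.37e-08), and the groups were well apart. Ntn1 lies at chr11:68209364-68400823 on the minus strand.
Ntn4, a netrin of basement membranes, measured 11.9, 10.5 and 11.3 CPM in control and 7.71, 7.48 and 6.59 CPM in miR182 samples. It fell 1.55-fold (log2 -0.63, SE 0.086, adjusted p = 3.72e-05), close to the 1.5-fold limit, and without miR182 replicate 3 the log2 change of -0.56 was under it.
Ntn3, a less studied netrin with an 8-base seed match, was near 1 CPM, at 1.18, 1.42 and 1.34 in control and 1.06, 0.721 and 0.85 in miR182 samples. It fell 1.49-fold, just under the limit, with an adjusted p of 0.0448 that rose to 0.0726 with a replicate block, and 139 of its 5109 exon bases are overlapped on the other strand and 89 on its own.

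Netrin receptors did not follow a common direction. Unc5a, a dependence receptor that mediates repulsion by netrins, measured 6.33, 5.74 and 6.93 CPM in control and 4.42, 4.29 and 3.65 CPM in miR182 samples. It fell 1.54-fold (log2 -0.62, SE 0.12, adjusted p = 0.000537), and without control replicate 3 (-0.55) or miR182 replicate 3 (-0.54) it was under the 1.5-fold limit; 34 of its 4168 exon bases are overlapped on the other strand. Unc5b, an Unc5 receptor also found in vessels, was by far the most abundant of the 4 and rose 1.07-fold, from 421 ± 15 to 448 ± 8.7 CPM (adjusted p = 0.0287). Unc5c was at 5.09 ± 0.63 and 4.22 ± 0.80 CPM and did not pass. Dcc, the main netrin attraction receptor in neurons, had 0 reads in all 6 samples. Neo1 (neogenin), its relative, was at 298 ± 3.9 CPM in control and 353 ± 13 CPM in miR182 samples and rose 1.18-fold (adjusted p = 1.83e-05).

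The Slits made up most of the difference in summed ligand reads. Slits are large secreted proteins that repel axons, and Slit3 is also made by vascular and mural cells. Slit3, at chr11:35121224-35708507, measured 624, 596 and 610 CPM in control and 437, 445 and 450 CPM in miR182 samples. The gap was large beside the spread, and Slit3 fell 1.37-fold (log2 -0.46, SE 0.029, adjusted p = 1.65e-08), under the 1.5-fold limit. Slit2, a Slit whose cleaved form has been described as a thermogenic signal from fat, measured 254, 264 and 252 CPM in control and 218, 226 and 226 CPM in miR182 samples. It fell 1.15-fold (log2 -0.20, SE 0.029, adjusted p = 6.41e-05). Slit1, mainly a neural Slit, was near 1 CPM, at 1.07 ± 0.18 and 1.14 ± 0.076 CPM. The Slit sum was 880, 861 and 863 CPM in control and 655, 672 and 677 CPM with miR182. None of the 3 Slits was called by edgeR, DESeq2 or limma-voom, beside 7.45% of all genes called by edgeR. An unadjusted p under 0.05 was found in 2 Slits. These passed the adjusted p too, as did 46.7% of all genes.
Robo1, the only Slit receptor with enough reads to test, moved in the same direction. It measured 13.4, 11.4 and 12.1 CPM in control and 7.81, 6.79 and 9.03 CPM in miR182 samples. The groups did not overlap, and Robo1 fell 1.56-fold (log2 -0.64, SE 0.10, adjusted p = 0.000122). Without control replicate 1 (-0.58) or miR182 replicate 2 (-0.54) the change was under the 1.5-fold limit, while the adjusted p was passed in every fit that left out 1 sample. Robo1 lies at chr16:72308306-73046095, and its seed match is the first of the sites printed above. Robo2, Robo3 and Robo4 had at most 10, 5 and 1 reads in any sample.

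**Figure D4:**
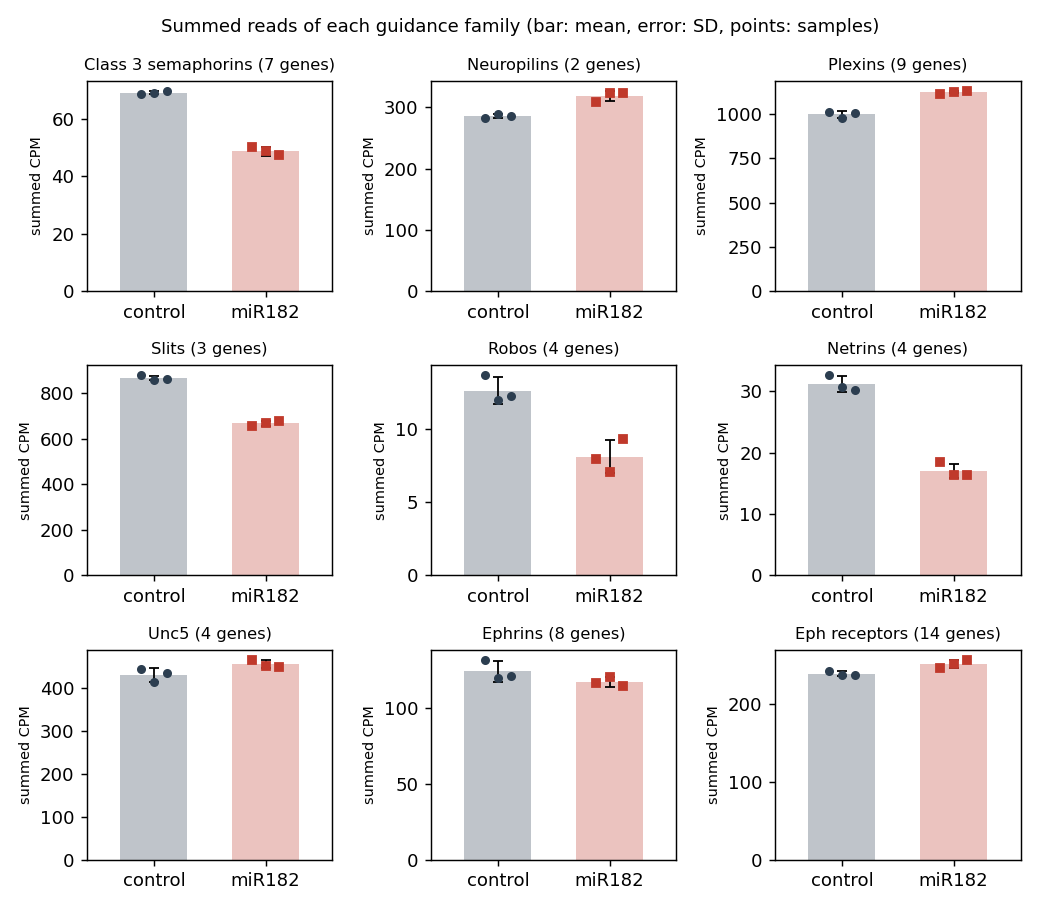
Summed CPM (vertical axis, from 0) of each guidance family in the 3 control (circles) and 3 miR182 (squares) samples, with bars for the mean and error bars of 1 SD. The class 3 semaphorin, Slit, Robo and netrin sums lie lower in all 3 miR182 samples, the neuropilin, plexin, Unc5 and Eph receptor sums lie higher, and the ephrin sums overlap. Of all single genes tested, 54.8% did not overlap between the groups. The Unc5 sum is nearly all Unc5b, and of the 3 tested Unc5 genes 1 was higher and 2 lower.

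The ephrins and Eph receptors held no called gene. Ephrins of class A are GPI-anchored and those of class B span the membrane, and both signal on contact with Eph receptors on a neighbouring cell. By edgeR 0 of 8 tested ephrins and 0 of 9 tested Eph receptors were called, beside 7.45% of all genes. The same counts came from DESeq2 and limma-voom. An unadjusted p under 0.05 was found in 2 ephrins and 5 Eph receptors. All of these passed the adjusted p too, as did 46.7% of all genes.
Efna4 fell 1.45-fold, from 6.84, 6.78 and 5.75 CPM to 4.32, 4.67 and 4.36 CPM (adjusted p = 0.000901), and 168 of its 1599 exon bases are overlapped on the other strand. Efna2 fell 1.42-fold, from 4.40 ± 0.50 to 3.12 ± 0.40 CPM (adjusted p = 0.00786). Efnb1, the most abundant ephrin, was at 79.7 ± 4.6 and 77.6 ± 0.26 CPM (log2 -0.04, SE 0.040). The other 5 ephrins (Efna1, Efna3, Efna5, Efnb2 and Efnb3) did not pass the adjusted p, among them both with a seed match, Efnb2 at 22.3 ± 0.94 and 21.7 ± 2.1 CPM and Efna5 at 8.40 ± 0.56 and 7.67 ± 1.2 CPM.
The Eph receptors past the adjusted p moved both ways. Epha4, which binds ephrins of both classes, rose 1.47-fold, from 3.50, 3.25 and 3.45 CPM to 5.00, 4.71 and 5.28 CPM (adjusted p = 0.00100). Epha2 rose 1.32-fold, from 7.04 ± 1.0 to 9.31 ± 0.63 CPM (adjusted p = 0.00572), and Ephb3 rose 1.17-fold, from 65.2 ± 0.45 to 76.3 ± 1.4 CPM (adjusted p = 8.48e-05). Ephb3 is among the 10 highest guidance genes per kb.
Epha7, with a seed match, fell 1.33-fold, from 5.92 ± 0.58 to 4.47 ± 0.58 CPM (adjusted p = 0.0133), and Ephb6, a member without kinase activity, fell 1.28-fold, from 3.45 ± 0.20 to 2.69 ± 0.20 CPM (adjusted p = 0.0375; 0.0643 with a replicate block). Ephb4, the venous receptor of Efnb2 and the highest Eph receptor per kb in both groups, was at 75.4 ± 2.1 and 75.8 ± 4.2 CPM (log2 0.01, SE 0.043). Ephb2 was at 61.4 ± 0.82 and 61.2 ± 0.17 CPM (log2 -0.01, SE 0.036). Epha3, the class A receptor with the most reads, was at 13.9 ± 1.1 and 14.4 ± 1.1 CPM and Epha1 at 3.26 ± 0.73 and 2.96 ± 0.065 CPM, both with overlapping groups.

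Of the 19 genes past the adjusted p under 1.5-fold, 12 stayed past it in all 6 fits that left out 1 sample. Plxnb2 missed it without control replicate 2 (adjusted p = 0.0642), Epha7 without control replicate 3 (0.0644) or miR182 replicate 1 (0.0537), and Plxna2 without control replicate 1 (0.0548) or miR182 replicate 2 (0.0625). Nrp1 missed it without control replicates 2 (0.0625) or 3 (0.0579) or miR182 replicate 1 (0.0707), and Unc5b without the same libraries (0.137, 0.0634 and 0.0537). Ephb6 passed in 2 of the 6 fits, those without control replicate 3 or miR182 replicate 3, and Ntn3 only in the fit without miR182 replicate 1.

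Fold changes were set beside the seed matches as a description. Of the 7 tested guidance genes that hold TTGCCAA, 6 were lower and 1 (Sema5a) was higher. Of the 7, only Robo1, Epha7 and Ntn3 passed the adjusted p. Lower were also 27 of the 49 guidance genes without it, and 967 of the 1568 tested genes of any kind with it. The median log2 fold change was -0.23 in the 7 guidance genes, beside -0.04 for the 49 without it. Over all genes tested the medians were -0.07 with and 0.01 without it. For the 8-base form the medians were -0.305 in the 2 guidance genes and -0.17 over all genes that hold it. Called lower were 1 of the 7 guidance genes with a 7-base match (14.3%) and 6 of the 49 without (12.2%), beside 11.7% of all genes with it and 4.61% without. Robo1 was the called gene with a match, and the other 6 called lower (Sema3g, Ntn1, Sema3b, Sema3c, Ntn4 and Unc5a) held none in the longest annotated 3′-UTR. A match is a run of letters and says nothing here about binding.

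The genes that work with these receptors were counted from lists. Of 29 other guidance ligands, coreceptors and processing enzymes, 24 were tested and edgeR called 0, beside 7.45% of all genes, as did DESeq2 and limma-voom, with 14 at an unadjusted p under 0.05. Past the adjusted p were 12 of 24, 50% beside 46.7% of all genes, with 6 higher (Neo1, Flt1, Itgb1, Ryk, Gpc1 and Adam17) and 6 lower (Rgma, Rgmb, Flrt2, Met, Mst1r and Ptk7). Itgb1, the integrin subunit through which Sema7a signals, was at 1028 ± 31 CPM in control and 1340 ± 53 CPM with miR182 and rose 1.30-fold (adjusted p = 8.20e-07). Of 52 cytoplasmic effectors, 49 were tested and 2 were called, both lower, which is 4.08% beside 7.45% of all genes tested. Cfl1 (cofilin, which severs actin filaments) fell 1.97-fold, from 467 ± 4.3 to 237 ± 13 CPM (log2 -0.98, SE 0.035, adjusted p = 4.45e-11), and Chn1 (a GTPase-activating protein for Rac that acts downstream of Epha4) fell 1.86-fold, from 1.49 ± 0.27 to 0.796 ± 0.13 CPM (adjusted p = 0.00466). Past the adjusted p at any size, 12 effectors were higher and 11 lower, together 46.9% of those tested beside 46.7% of all genes.

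The 12 guidance genes that were not tested had at most 10 reads in any sample. These were Robo2 and Plxnb3 (10 at most), Robo3 and Sema5b (5), Epha5 and Ephb1 (4), Ntn5 (3), Robo4, Unc5d and Epha8 (1), and Epha6 and Epha10, which had 0 reads in all 6. At these depths a count of 0 allows a level of up to 0.118 CPM in the shallowest library, taking 3 reads as the limit, and this covers counting error only.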

How the data were processed

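RNA of 6 samples was measured. The files deposited for each sample list unnormalized read counts by gene symbol, and the submitters' processing notes name bcl2fastq, TopHat2, HTSeq and mm9; versions, annotation and strand setting are not given in the sources used here. The 5 closing tally lines were left out (reads outside genes were 12.7% to 13.0% of the sum of gene, ambiguous and outside reads). Reads that align to several places were not assigned to genes, so near-identical genes can lose reads.

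Counts were fitted in R 4.3.3 with edgeR 4.0.16 (TMM, filterByExpr with a minimum count of 10, glmQLFit, glmQLFTest, group only, two-sided); CPM uses TMM-scaled library sizes. Alternatives were DESeq2 1.42.0, limma-voom (limma 3.58.1), other size factors, other filters, a replicate block, each sample left out, and other cutoffs. The fit was tested on simulated counts. Symbols were matched to GENCODE M21 (22209 of 22609; all 68 guidance genes), which gave GRCm38 positions, exon lengths, overlaps and 3′-UTRs, while the counts were made on mm9. Every called gene, every gene past the adjusted p, the most abundant member of each family, and the 5 most abundant genes not past it are named; others are named in addition to account for all members. The members and lists were chosen with earlier results of these data known. Tables and figures were made in Python 3.11.15 (matplotlib 3.10.9, numpy 2.4.6, pandas 2.3.3).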

Additional observations from a re-analysis of the deposited data

How the results depend on the processing

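The counts of 11 called, 4 higher and 7 lower were the same with DESeq2, limma-voom, DESeq2 or upper-quartile factors, both other filters and the replicate block, and all 11 genes were called in each of these 7 fits. The block left 28 in place of 30 past the adjusted p. Same-numbered samples did not deviate together (correlations -0.18, -0.04 and -0.07). With 3 samples per group, this cannot show whether same-numbered samples share a preparation. Tested against 1.5-fold (glmTreat), 5 were called, 2 higher and 3 lower. At 2-fold these counts were 3, 1 and 2. Without a fold cutoff they were 30, 13 and 17, and the 30 are 53.6% of those tested, beside 46.7% of all genes. The share of all genes called with glmTreat, at 2-fold or with a sample left out is not given here. The counts at these settings, also those of the lists below, therefore have no background beside them. Leaving out 1 sample gave 10 to 12 called, 4 to 5 higher, 5 to 8 lower and 25 to 30 past the adjusted p; 8 of the 11 were called in all 6 such fits, and the exceptions (Robo1, Ntn4 and Unc5a) are given above. Efna4, Epha4, Ntn3 and Sema3d were each called in 1 such fit. The other ligands and coreceptors gave 0 to 1 calls with a sample left out and 12 without a fold cutoff; the effectors gave 2 to 3, 1 with glmTreat, 0 at 2-fold, 3 with at least 10 counts in every sample and 23 without a cutoff. Of 725 single-gene fits 16 changed direction, all in genes not past the adjusted p. With a sample left out, log2 changes ranged from -0.0678 to 0.0098 (Efnb1), -0.0862 to 0.0439 (Efnb2), -0.3045 to 0.0078 (Epha1), -0.0119 to 0.1107 (Epha3), -0.0175 to 0.0004 (Ephb2), -0.0242 to 0.0524 (Ephb4, -0.0053 with upper-quartile factors), -0.0603 to 0.0002 (Plxnd1), -0.1789 to 0.798 (Sema3e), -0.0301 to 0.1281 (Sema5a), -0.1162 to 0.0348 (Sema6c) and -0.012 to 0.2257 (Slit1). The cause of these changes was not tested.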

Other observations

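The mature sequence that the study's methods give for its miR-182-5p measurement has the bases GUAAACA at positions 2 to 8, which is the seed of the miR-30 family and differs from that of RefSeq miR-182-5p. The RefSeq sequence of a member of that family is shown for comparison, with the seed in capitals. It is encoded on the plus strand at chr1:23272274-23272295 of GRCm38.p6. Its last bases differ from those of the sequence in the methods, and other members of the family were not compared.
miR-30a-5p: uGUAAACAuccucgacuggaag
Its 7-base match, TGTTTAC, occurred in the 3′-UTR of 15 of the 56 tested guidance genes (26.8%) and in 16.4% of all tested genes. The 15 had a median log2 fold change of 0.05, beside -0.05 for the other 41, and 7 were lower and 8 higher. Over all genes tested the medians were 0.04 with and -0.0088 without this match. The sequence of the RNA that was introduced is not given in the sources used here.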
